A study of Mus musculus with 9 samples.

Results

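Shared sites kept by MR alone were binding sites to which both the glucocorticoid receptor (GR) and the mineralocorticoid receptor (MR) bound after corticosterone (CORT), where MR was still called after the hormone was washed out and GR was not. They were chosen by the MACS2 peak calls of 4 lists: a GR CORT peak was taken where it shared 1 bp or more with a peak of MR in CORT, where that MR peak in turn touched an MR washout peak, and where no GR washout peak lay on it. Peaks on chromosomes 1 to 19 and X were used, without coding exons of Nr3c1 and Nr3c2, the genes of the receptors themselves, since the transfected plasmids carry those sequences. Of 10548 GR CORT peaks, 2562 met this rule (24.3%, 95% Wilson interval 23.5% to 25.1%), and they made up 39.9% (38.7% to 41.1%) of the 6426 GR CORT peaks that overlapped an MR CORT peak, called shared sites here. Of the other shared sites, 3606 had no washout peak of either receptor (emptied sites), 158 had washout peaks of both, 21 had a GR washout peak without a kept MR peak, and 79 touched an MR washout peak that lay beside their MR CORT peak.

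The cells were N2A, a mouse neuroblastoma line, transiently transfected with both EGFP-GR and mCherry-MR in charcoal-stripped serum. The methods describe rat receptor cDNAs and the deposited description names mouse receptors. N2A cells also have their own GR, which carries no tag, and both tagged receptors are overexpressed. Cells received vehicle, 100 nM CORT for 20 minutes, or the same CORT followed by 2 washes and 40 minutes in medium without CORT (washout). GR was precipitated through GFP and MR through RFP for ChIP-nexus, in which an exonuclease trims the precipitated DNA back to the crosslinked protein, and input chromatin of each treatment was sequenced without precipitation. The 3 replicates of each condition were combined by the authors before peaks were called, so there was 1 peak list per receptor and treatment and no spread between replicates can be given. Peak calls of single replicates were not used here, so how many of these sites recur between replicates is not known from these lists. The tests below take sites as units and compare groups of sites within these lists, so they do not show how the treatments vary between cultures. The peak lists carry no read counts, and a site without a washout peak means only that no peak was called there at that list's depth and threshold.

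GR and MR are ligand-activated transcription factors with nearly identical DNA-binding domains, and both recognise the glucocorticoid response element (GRE), a palindrome of a pair of half-sites with a spacer between them. MR is known to bind corticosterone with higher affinity than GR, so that at low hormone levels MR can be occupied while GR is largely not. In neuroblasts of the sympathetic lineage, GATA factors and homeodomain factors are known regulators of identity, and receptor binding sites often lie beside sites of other such factors.

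The sequences below are the windows of 40 bp to each side of the MR CORT summit at the 6 kept sites with the highest −log10 p (the MACS2 score for enrichment over input) of the MR washout peak and at the strongest kept site of Fkbp5. They show how far the DNA under the strongest retained MR binding resembles a GRE. All are plus-strand GRCm38 (mm10) sequences. Capitals mark the best match to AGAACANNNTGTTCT where it has at most 3 mismatches in its 12 fixed positions, the limit used for a GRE throughout. For windows that touch an annotated exon, a shorter stretch around the GRE is given.
Col4a2 (chr8:11382072-11382152): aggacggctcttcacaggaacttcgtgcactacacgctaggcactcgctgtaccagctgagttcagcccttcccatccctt
Mdm1 (chr10:118121970-118122050): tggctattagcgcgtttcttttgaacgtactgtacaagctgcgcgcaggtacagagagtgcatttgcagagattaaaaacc
Mmp19 (chr10:128779512-128779592): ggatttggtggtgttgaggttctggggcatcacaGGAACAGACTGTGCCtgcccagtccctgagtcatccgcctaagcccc
Pgf (chr12:85195323-85195403): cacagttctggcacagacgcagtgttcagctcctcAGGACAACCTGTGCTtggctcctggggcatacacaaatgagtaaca
Trub1 (chr19:57437666-57437746): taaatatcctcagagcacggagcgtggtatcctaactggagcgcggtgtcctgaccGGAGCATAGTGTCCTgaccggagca
Mrtfb (chr16:13358547-13358575): gggagcaGGACCAGAGTGTTCTgtgctct
Fkbp5 (chr17:28512871-28512951): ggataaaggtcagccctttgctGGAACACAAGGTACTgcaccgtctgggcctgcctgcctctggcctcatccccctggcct

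The windows at Mmp19, Pgf, Trub1, Mrtfb and Fkbp5 held a GRE with 2 or 3 mismatches. The windows at Col4a2 and Mdm1, with the highest values of all, held none closer than 4 mismatches, and the nearest GRE at Col4a2 was centred 84 bp from the summit. Strong retained MR binding was thus listed both on and off a recognisable GRE.

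At 8 kept sites the window held a GRE without any mismatch, against 6 of the emptied sites. The 6 kept ones with the highest MR washout −log10 p are shown because they carry the full palindrome, with 15 bp to each side, or 7 bp at P4ha2, where an exon lies nearby.
Fkbp5 (chr17:28420306-28420350): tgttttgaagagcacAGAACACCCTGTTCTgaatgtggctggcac
P4ha2 (chr11:54113178-54113206): acagctcAGAACAGGCTGTTCTgcctgct
St3gal5 (chr6:72162268-72162312): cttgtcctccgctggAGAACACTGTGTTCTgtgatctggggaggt
Cep41 (chr6:30664749-30664793): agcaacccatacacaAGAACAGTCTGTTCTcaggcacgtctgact
Ctso (chr3:81939009-81939053): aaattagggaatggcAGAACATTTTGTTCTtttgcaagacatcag
Tbc1d9b (chr11:50147836-50147880): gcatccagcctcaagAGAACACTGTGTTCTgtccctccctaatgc

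The full GREs were found at strong and at average peaks. The MR washout −log10 p was 25.8 at Fkbp5, 22.6 at P4ha2, 20.9 at St3gal5, 13.2 at Cep41, 11.8 at Ctso and 10.7 at Tbc1d9b, where the median over all kept sites was 10.4. The GR CORT −log10 p at these sites ran from 7.13 at Ctso to 33.5 at P4ha2.

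For contrast, the emptied sites with the highest MR CORT −log10 p are shown. The 4 highest emptied GR peaks lay on 3 MR peaks, since 2 GR peaks at Disc1 overlapped the same MR peak.
Scml4 (chr10:42951559-42951639): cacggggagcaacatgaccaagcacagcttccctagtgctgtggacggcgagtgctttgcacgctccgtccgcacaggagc
Disc1 (chr8:125255511-125255591): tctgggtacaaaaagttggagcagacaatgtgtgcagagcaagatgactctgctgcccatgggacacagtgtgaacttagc
Lcn2 (chr2:32388269-32388297): gaagaacAGGACACCCTGTTCTgagcctg

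The MR CORT −log10 p at these emptied sites lay within the range of the leading kept sites, at 45.7 at Scml4, 42.2 at Disc1 and 38.0 at Lcn2. The windows at Scml4 and Disc1 held no GRE. The Lcn2 site, 30 bp before the start of the gene of an iron-carrier protein, held a GRE with 1 mismatch and an intact half-site, so a close GRE and strong MR binding after CORT also occurred where no washout peak was called.

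The rule was applied to peak calls, so the strengths of the peaks are given as a description. The GR CORT −log10 p of the 2562 kept sites ranged from 4.60 to 50.4 with a median of 11.4, their MR CORT −log10 p from 4.97 to 54.4 with a median of 14.9, and their MR washout −log10 p from 4.89 to 56.6 with a median of 10.4. Emptied sites had medians of 8.76 for GR CORT and 9.82 for MR CORT, and the 158 sites kept by both receptors had 18.4, 21.3 and 16.0. The kept sites thus stood between the emptied sites and those kept by both receptors in strength. In width the order was the same, with median GR and MR CORT peaks of 174 and 130 bp at kept sites, 127 and 74 bp at emptied sites, and 250 and 198 bp at sites kept by both. The −log10 p grows with depth and cannot be compared as an amount between lists. Within that limit, 651 kept sites had a higher −log10 p for MR after washout than after CORT and 1911 did not. The MR washout list had 503 peaks in its strongest class (the top 500 with ties), and 395 of them belonged to a kept site. Over the whole list 2497 of 4826 MR washout peaks did, and the rule itself used these calls.

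The rule required the MR CORT peak to overlap both the GR CORT peak and an MR washout peak. This favours short distances between summits and overlap of the outer peaks. The distances are therefore a description, and no reference distance was computed. The MR washout summit lay a median of 18 bp from the MR CORT summit (quartiles 7 and 43 bp), within 20 bp at 1394 of the kept sites and over 100 bp away at 169. The GR CORT summit lay a median of 26 bp from the MR CORT summit and 28 bp from the MR washout summit, and at 2465 sites the GR CORT peak overlapped the MR washout peak itself. Most kept sites, 2257, had 1 MR CORT peak under the GR peak, 281 had 2 and 24 had 3 or 4. Of the sites with several MR peaks, all MR peaks were kept at 73 and some were lost at 232.

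At the edge of the rule, 31 kept sites had an MR CORT and an MR washout peak that shared under 10 bp, the least being 1 bp, against a median overlap of 68 bp. At 16 kept sites the GR CORT and the MR CORT peak shared under 10 bp. The weakest MR washout peak of a kept site had a −log10 p of 4.89. Just outside the rule, 77 emptied sites had an MR washout peak within 100 bp of their MR CORT peak, the nearest directly adjoining it at 0 bp, and 410 had one within 1000 bp. Of the kept sites, 29 had a GR washout peak within 1000 bp of the GR CORT peak without touching it.

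**Figure D1:**
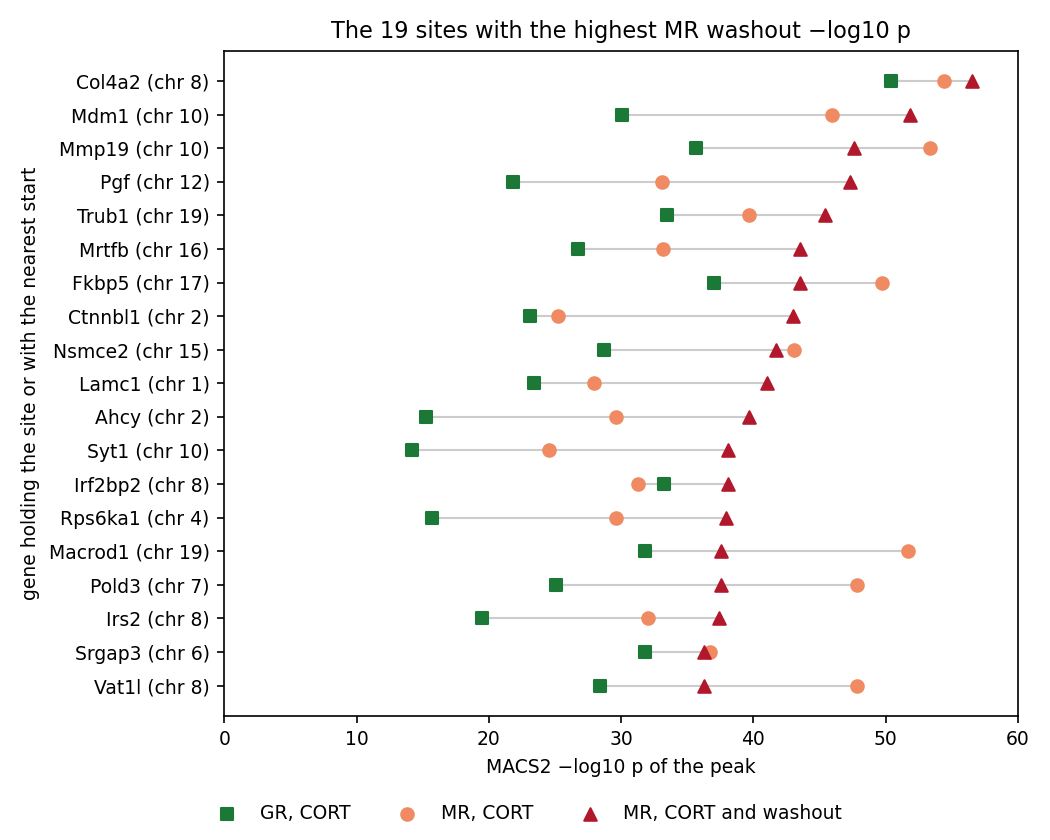
MACS2 −log10 p (x axis) of the GR CORT, MR CORT and MR washout peak at the 19 kept sites with the highest MR washout value, 1 row a site named by its gene and chromosome, with 1 list per condition and no error. The MR washout value ran from 36.3 at Srgap3 and Vat1l to 56.6 at Col4a2, and the GR CORT value lay below both MR values at all rows but that of Irf2bp2.

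The kept site with the highest values in all 3 lists lay in an intron of Col4a2, which encodes a chain of basement membrane collagen (chr8:11381953-11382485). Its −log10 p was 50.4 for GR CORT, 54.4 for MR CORT and 56.6 for MR washout. The site near Mmp19, a matrix metalloproteinase gene, had 35.7, 53.3 and 47.6 in the same order. The site in the first stretch of Fkbp5, 4616 bp after the start of the gene, had 37.0, 49.7 and 43.6, with the MR washout summit 145 bp from the MR CORT summit. These 3 sites were the ones among the 10 highest both for MR washout and for GR CORT.

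Other sites were among the 10 highest for MR washout but not for GR CORT. The site 17573 bp before Pgf, the gene of placental growth factor, had 21.8 for GR CORT, 33.1 for MR CORT and 47.3 for MR washout. The site 45281 bp before Ctnnbl1 had 23.1, 25.2 and 43.0, and the site in an intron of Lamc1, a laminin chain gene, had 23.4, 27.9 and 41.0. The remaining sites of the 10 highest for MR washout were those at Mdm1 (30.1, 46.0 and 51.9), Trub1 (33.5, 39.7 and 45.4), Mrtfb (26.7, 33.2 and 43.6), a cofactor gene of serum response factor, and Nsmce2 (28.7, 43.1 and 41.7). Except at Nsmce2, Mmp19 and Fkbp5, the −log10 p of the MR peak at these 10 sites was higher in the washout list than in the CORT list.

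Conversely, 7 of the 10 sites highest for GR CORT were not among the 10 highest for MR washout. The site nearest to Cstad had 42.4 for GR CORT, 33.2 for MR CORT and 16.2 for MR washout. The site in Extl1, which encodes a glycosyltransferase of heparan sulfate, had 38.8, 36.7 and 17.8. The site 9116 bp before Gpat2 had 38.2, 36.4 and 12.7, the site nearest to Map1b, a microtubule-associated protein gene, had 37.0, 34.9 and 17.1, and the site nearest to Gm10320 had 36.4, 44.8 and 20.8. A further site, 75787 bp before Rab4a, lay in the gene model Gm20388 with 38.7, 29.2 and 16.5. The site nearest to 1700001O22Rik had the highest MR washout value of these, with 36.3, 27.7 and 34.1. The GR CORT peaks of these 7 sites ranked between the percentiles 99.8 and 99.9 of the GR CORT list by −log10 p.

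The question the sequences address is what distinguishes shared sites that MR kept from those that were emptied, and sequence was not used by the rule. Motifs were counted within 100 bp of the MR CORT summit on both strands, and 8 motifs in 2 comparisons were tested with two-sided Fisher's exact tests and Benjamini-Hochberg adjustment over all 16. A GRE stood at 1258 kept sites (49.1%, 47.2% to 51.0%) and at 1397 emptied sites (38.7%, 37.2% to 40.3%), an odds ratio of 1.53 (1.38 to 1.69, adjusted p = 1.12e-14 in Fisher's exact test). The share over all 14530 MR CORT peaks was 39.9% and over all GR CORT peaks 37.7%. More than 1 GRE start was found at 9.52% of kept and 5.99% of emptied sites.

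The closer the GRE was to the palindrome, the larger the part of the sites that MR kept. A best match with 0 or 1 mismatches was found at 3.43% of kept and 1.22% of emptied sites (odds ratio 2.88, 2.00 to 4.15, adjusted p = 1.63e-08 in Fisher's exact test over the 6 match classes). With 2 mismatches the shares were 12.7% and 8.10% (1.65, 1.40 to 1.95), and with 3 mismatches 33.0% and 29.4% (1.18, 1.06 to 1.32, adjusted p = 0.00365 in the same exact test). Matches with 4 mismatches (37.4% and 42.6%) and with more (13.5% and 18.7%) were less frequent at kept sites, with odds ratios of 0.80 and 0.68. Counted over kept and emptied sites together, 66.7% (58.3% to 74.1%) of those with 0 or 1 mismatches were kept, 52.7% with 2, 44.3% with 3, 38.4% with 4 and 34.0% (31.1% to 36.9%) with more. An intact half-site within the best match was found at 19.5% and 17.6% of sites, a difference that did not pass Fisher's exact test (adjusted p = 0.053).

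GREs lay under the summit. At kept sites the GRE centre was a median of 15 bp from the MR CORT summit, 20 bp from the MR washout summit and 30 bp from the GR CORT summit, and at emptied sites 18 bp from the MR CORT summit. The GRE was searched only within 100 bp of the MR CORT summit, and of equal best matches the nearest was taken. That choice favours short distances to the MR CORT summit, so the distances to the different summits cannot be ranked. Within 20 bp of the summit there were 7.75 GRE starts per 1000 positions at kept sites and 5.30 at emptied sites, against 0.877 and 0.838 in windows centred 1000 bp to each side. In those flanking windows the share with a GRE was 15.0% and 14.5% (odds ratio 1.04, 0.94 to 1.15, adjusted p = 0.615 in Fisher's exact test).

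Because kept sites were stronger after CORT, the GRE was also compared with strength in the model. In a logistic regression over the 6168 kept and emptied sites, with the log2 of the −log10 p of the MR and the GR CORT peak as covariates, the odds ratio of a GRE was 1.42 (1.27 to 1.60). With GC content as a further covariate, added after the data were seen, it was 1.35 with an upper bound of 1.52, and the Wald interval did not include 1. In each of 5 classes of MR CORT strength the share with a GRE was higher at kept sites, from 49.5% against 37.3% in the weakest class to 51.3% against 40.9% in the strongest. The smallest gap was in the middle class, with 43.5% and 39.2%. The emptied sites hardly changed in GRE share across the classes (37.3% to 40.9%), while the share of sites that were kept went from 17.3% in the weakest class to 77.6% in the strongest.

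**Figure D2:**
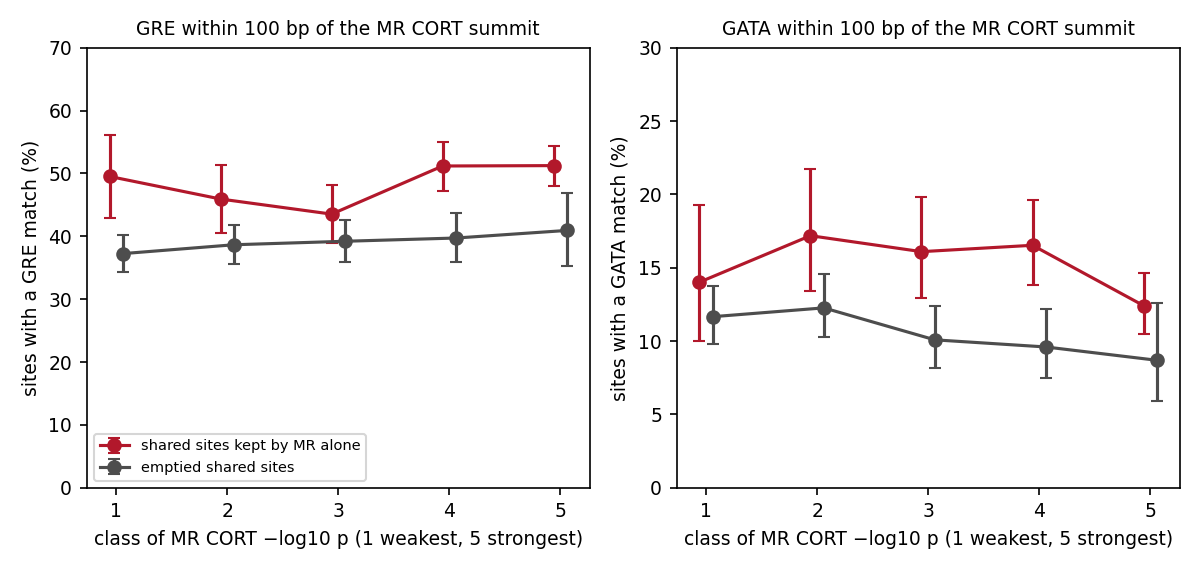
Share of sites (y axis, percent) with a GRE (left) or a GATA word (right) within 100 bp of the MR CORT summit in 5 classes of equal size of MR CORT −log10 p (x axis), for kept sites in red and emptied sites in grey, with 95% Wilson intervals for counting error. The kept sites lie above the emptied sites in every class in both panels, with intervals that overlap in several classes.

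Among the kept sites themselves, the GRE share was 43.1% (38.9% to 47.4%) in the fifth with the lowest MR washout −log10 p and 63.5% (59.3% to 67.6%) in the fifth with the highest. The classes between them had 43.2%, 50.2% and 45.5%, so the higher share was found in the strongest class rather than as an even slope. A GRE with at most 2 mismatches was found at 10.3% (7.99% to 13.3%) of the weakest class and 26.7% (23.1% to 30.7%) of the strongest. The classes between them had 12.1%, 14.8% and 16.6%, so the share of these closer GREs rose from each class to the next. The median MR CORT width went from 113 to 164 bp over the same classes, and its part in this was not tested.

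GATA sites were also more frequent at kept sites. The word AGATAA, recognised by GATA factors, was found at 379 kept sites (14.8%, 13.5% to 16.2%) and 393 emptied sites (10.9%), an odds ratio of 1.42 (1.22 to 1.65, adjusted p = 5.50e-05 in Fisher's exact test). Its share over all MR CORT peaks was 12.6%. In windows 1000 bp away the shares were 10.5% at kept and 10.7% at emptied sites (odds ratio 0.98, 0.87 to 1.10). With both peak strengths in the model the odds ratio was 1.69 (1.42 to 2.00), and with GC content as well it was 1.55 (1.30 to 1.84). The GATA word did not sit under the summit as the GRE did. Within 20 bp of the summit there were 0.517 matches per 1000 positions at kept sites and 0.291 at emptied sites, against 0.569 and 0.592 in the flanking windows.

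Sites with both a GRE and a GATA word had the highest share of kept sites, and no test of their combination was run. Of sites with both, 55.2% (49.8% to 60.5%) were kept. Of sites with a GRE alone 46.3% (44.3% to 48.3%) were kept, of sites with a GATA word alone 44.6% (40.1% to 49.3%), and of sites with neither 36.0% (34.3% to 37.7%). By MR washout strength the GATA share was 12.5% in the weakest and 15.4% in the strongest class of kept sites, with intervals that overlapped. At the 158 sites kept by both receptors the GATA share was 5.70% (3.03% to 10.5%) and the GRE share 40.5% (33.2% to 48.3%), given without a test. A border pair of the CORT input lay at 19 of those 158 sites.

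**Figure D3:**
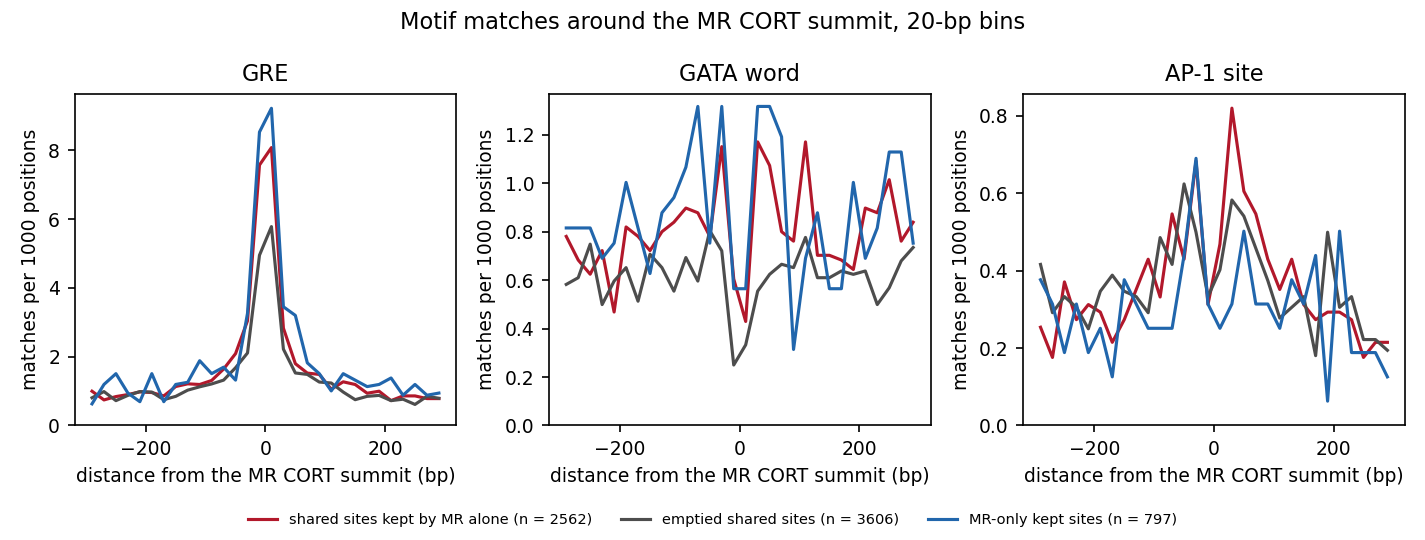
Matches per 1000 positions (y axis) in 20-bp bins of the distance from the MR CORT summit (x axis) for the GRE, the GATA word and the AP-1 site at kept sites (red), emptied sites (grey) and MR-only kept sites (blue), without error bars. GRE matches peak at the summit in all groups and reach higher at kept than at emptied sites, while GATA matches dip at the summit.

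The motif of Phox2a, a homeodomain factor of noradrenergic neurons, was found at 4.68% of kept and 3.24% of emptied sites (odds ratio 1.47, 1.13 to 1.90 and adjusted p = 0.0186 in Fisher's exact test). In the same exact test the call was lost with a window of 50 bp (adjusted p = 0.228), around the GR summit (0.055) and for peaks with a −log10 q from 5 up (0.424). The other motifs did not pass the test. AP-1 sites (TGANTCA with C or G in the open place), bound by Fos and Jun proteins, stood at 9.84% and 8.85%, NF-1 sites (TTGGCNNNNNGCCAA with at most 2 mismatches) at 9.33% and 8.65%, E-boxes (CAGCTG) at 14.4% and 15.5%, GC boxes (GGGCGG) at 6.36% and 6.54%, and cAMP response elements (TGACGTCA) at 0.664% and 0.333%. The odds ratio for AP-1 was 1.12 with an interval of 0.94 to 1.34.

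To see which other short sequences differed, all 2080 words of 6 bases were compared, a scan added after the data were seen. Against emptied sites 10 words (0.481% of those tested) were more frequent at kept sites and 1 (0.0481%) was less frequent, at an adjusted p under 0.05. The words fell into a pair of groups by their letters. One held GATA, with AGATAA as above, then CTTATC (10.8% of kept and 7.71% of emptied sites, odds ratio 1.45) and GATAAA (9.56% and 6.85%, 1.44). The other 7 words held TAAT on one strand, the core that homeodomain factors are known to bind. They were led by ATTAAA (11.7% and 7.35%, odds ratio 1.67, 1.40 to 1.98, adjusted p = 1.79e-05 by Fisher's exact test) and included TAATTA (6.67% and 4.05%, odds ratio 1.69) and TAATGA (10.5% and 7.57%, 1.43). The less frequent word, CCGTCG, was found at 2 kept and 25 emptied sites.

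Of the 10 words, 9 held at most 1 G or C, and kept sites had a slightly lower GC content, with a mean of 50.8% ± 6.10 (SD, n = 2562) against 51.3% ± 5.97 (n = 3606) in the windows. The difference of kept minus emptied sites, -0.472 percentage points, had a two-sided permutation p of 0.0024 in 100000 permutations. With GC content and both strengths in a logistic model, the odds ratio of TAATTA was 1.70 (1.31 to 2.21) and that of ATTAAA 1.64 (1.34 to 2.01). In windows 1000 bp away TAATTA was found at 5.44% of kept and 5.13% of emptied windows (odds ratio 1.06, 0.91 to 1.25). TAATTA was rarer under the summit, with 0.127 matches per 1000 positions within 20 bp of it at kept and 0.104 at emptied sites. The flanking windows had 0.307 and 0.292.

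Kept sites were next set against the 797 MR CORT peaks that overlapped no GR CORT peak and were also kept after washout (MR-only kept sites). The MR-only kept sites were weaker and narrower after CORT. Their median MR CORT −log10 p was 9.27 and their median width 67 bp, against 14.9 and 130 bp at kept sites. No model with peak strength was run for this comparison, so the part of strength in the differences below was not tested. The GRE share was 49.1% against 51.9% (odds ratio 0.89, 0.76 to 1.05, adjusted p = 0.269 by Fisher's exact test) and the GATA share 14.8% against 17.3% (0.83, 0.67 to 1.03, adjusted p = 0.164). For peaks with a −log10 q from 5 up the GATA share passed the exact test as lower at kept sites (odds ratio 0.63, adjusted p = 0.00865), and with summits within 50 bp of each other it did as well (0.77, adjusted p = 0.0355). These settings also changed the groups, since an MR peak whose overlapping GR peak failed the setting then counted as MR-only. GC boxes passed as more frequent at kept sites with a window of 200 bp (1.63, adjusted p = 0.00237 in the exact test) and with such summits (1.70). AP-1 sites were more frequent at kept sites, where a GR CORT peak was also called, at 9.84% against 6.65% (odds ratio 1.53, 1.13 to 2.08, adjusted p = 0.0187 by Fisher's exact test). The Phox2a motif was less frequent there, at 4.68% against 7.90% (0.57, 0.42 to 0.79, adjusted p = 0.00469 in the same exact test). The AP-1 call was lost with windows of 50 bp (adjusted p = 0.36 in the exact test) and 200 bp (0.079) and for peaks with a −log10 q from 5 up (0.197), and the Phox2a call with both windows (0.223 and 0.0803). Of the words of 6 bases, 5 (0.24%) were more frequent at kept than at MR-only kept sites, led by GCCACC (12.3% and 6.78%), and 7 (0.337%) were less frequent, led by AAAAAA (6.87% and 12.2%). Each of the 7 held at most 1 G or C. The median GC content was 50.7% at kept and 48.3% at MR-only kept sites, and its part in the words was not tested.

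**Figure D4:**
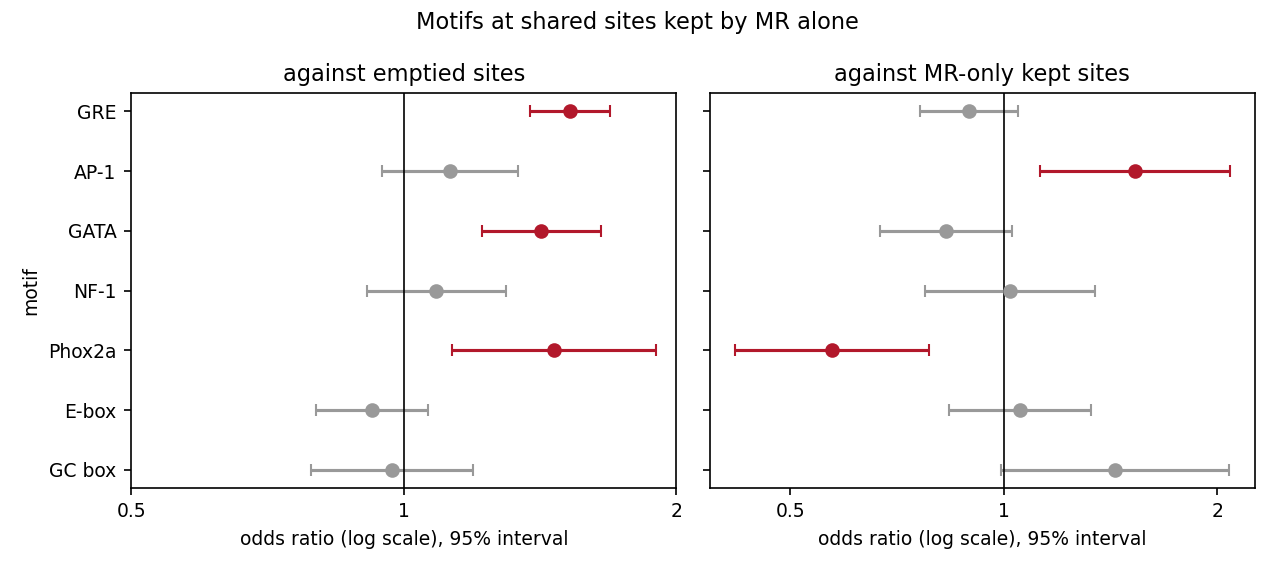
Odds ratios (x axis, log scale) with 95% intervals for 7 motifs at kept sites against emptied sites (left) and against MR-only kept sites (right). Red marks an adjusted p under 0.05, and the rare cAMP response element is left out because of its wide interval.

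The place of the kept sites relative to genes was taken from GENCODE M21, and differences from emptied sites depended on which genes were counted. Of the kept sites, 1413 (55.2%) had their MR CORT summit in an intron, 59 (2.30%) in a coding exon, 156 (6.09%) in a non-coding exon or UTR and 934 (36.5%) between genes. The summit was within 1 kb of a gene start at 8.47% of kept and 9.93% of emptied sites (odds ratio 0.84, 0.70 to 1.00, adjusted p = 0.112 by Fisher's exact test) and over 5 kb from every gene at 23.5% and 21.3% (1.13, 1.00 to 1.28). In Fisher's exact test 0 of 4 position classes passed, also at an unadjusted p under 0.05. With protein-coding genes alone, gene starts were less frequent at kept sites (odds ratio 0.71, adjusted p = 0.00729 in Fisher's exact test). The share of shared sites that were kept lay between 34.1% on chromosome X and 45.5% on chromosome 7, and chromosome 8, which held 777 shared sites, had 39.5%.

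The vehicle peak lists and the input border pairs held few of these sites. A vehicle peak of MR lay at 3 kept sites and 1 emptied site and a vehicle peak of GR at none of either, with 33 peaks in each vehicle list (odds ratio 4.23, 0.44 to 40.7, p = 0.314 in Fisher's exact test for either receptor). Border pairs of CORT input, called by MACE where the exonuclease stops on both strands, lay at 4 kept and 3 emptied sites (odds ratio 1.88, 0.42 to 8.40, p = 0.459 in Fisher's exact test). Vehicle input pairs lay at 8 kept sites and washout input pairs at 7, so each of these lists touched few of the kept sites. MR border pairs, from the same libraries as the peaks and so given without a test, lay at 736 kept sites (28.7%) after CORT and at 316 (12.3%) after washout, against 8.79% and 0.832% of emptied sites and 9.91% and 5.40% of MR-only kept sites. At kept sites the pairs had a median width of 38 bp after CORT and 35 bp after washout, and a GRE touched the pair at 29.6% and 33.2% of those sites. GR border pairs after washout lay at 7 kept and 2 emptied sites.

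The kept sites were spread over many genes. Of 21755 protein-coding genes, 1285 (5.91%) had a kept site in them or within 5 kb, 954 of these with 1 site and 331 with more. Of 872 genes with several kept or emptied sites, 520 (59.6%) had both kinds, 120 only kept and 232 only emptied sites. The largest count, 59 kept beside 92 emptied sites, was in Gm20388, an annotated model of 4434882 bp on chromosome 8 that spans other genes. Of these other genes Gse1 had 21 kept and 22 emptied sites. Slit3, which encodes an axon guidance ligand, had 11 of each, Frmd4a had 10 and 6, and Prkca, a protein kinase C gene, had 8 and 6. These genes are long and also held many MR sites lost after washout, such as 20 MR-only sites in Slit3.

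Fkbp5 encodes a co-chaperone that lowers the hormone affinity of GR and is itself induced by glucocorticoids. It had 6 kept sites, 4 emptied sites and no site kept by both receptors. The MR washout −log10 p of the 6 sites was 43.6, 29.3, 25.8, 16.5, 14.7 and 10.4, and their GR CORT −log10 p in the same order was 37.0, 17.2, 9.43, 14.2, 9.99 and 8.66. The site with the full GRE printed above was the third of these, 97159 bp into the gene. Another lay 660 bp before the start with a GRE of 3 mismatches at its summit. No other gene of the receptor chaperone list had a shared site, so 1 of 13 (7.69%) had a kept site.

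Kept sites near genes that glucocorticoids are known to induce were counted in a list of 21 genes that includes Fkbp5. Shared sites were found at 11 of them and kept sites at 7 (33.3%, where 5.91% of all protein-coding genes had one). Among genes with a shared site the share with a kept one was 63.6% in this list and 47.5% over all genes. The list held 13 kept and 8 emptied sites. Hif3a, which encodes an inhibitory hypoxia factor, had a site with 22.7 for GR CORT, 41.8 for MR CORT and 27.9 for MR washout. Zbtb16, a transcription factor gene, had 2 kept sites, of which the stronger had 9.43, 21.5 and 25.8. Per1 had a site with 17.8, 15.1 and 16.2 on a GRE of 1 mismatch, Tiparp one with 13.9, 19.3 and 14.7, and Dusp1, a MAP kinase phosphatase gene, one with 8.76, 10.6 and 7.69 that lay in a long annotated model 49363 bp from its start. Sgk1, the kinase gene through which mineralocorticoids raise sodium transport, had 1 emptied site and 1 kept site with 6.00, 14.4 and 12.2. The kept site lay past the end of the gene. Its GR peak began within 5 kb and its MR CORT summit lay 5171 bp away. This site was at the edge of the rule. Its GR CORT peak ended at position 22004924 and its MR CORT peak began at 22004922. The MR washout peak began at 22004937 and did not touch the GR peak. The GR CORT summit lay at -224 bp from the MR CORT summit, and the GR peak ranked at percentile 4.16 of the GR CORT list. Ddit4 and Errfi1 had emptied sites without a kept one, and the shared site of Cdkn1a and of Nfkbia had washout peaks of both receptors.

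The catecholamine list had kept sites at 5 of its 12 genes (41.7%), or 83.3% of its 6 genes with a shared site against 47.5% over all genes. Th, which encodes the rate-limiting enzyme of catecholamine synthesis, had 2 kept sites and no emptied one, and the stronger had 14.2 for GR CORT, 26.2 for MR CORT and 24.2 for MR washout. Pnmt, the enzyme gene that makes adrenaline and a known glucocorticoid target, had a site 352 bp before its start with 22.0, 20.0 and 26.9. Slc18a1, a vesicular monoamine transporter gene, had a site with 25.1, 31.4 and 22.6 that held no GRE. Ddc, which encodes the decarboxylase of the same pathway, had a site with 18.1, 19.6 and 19.3, and 1 site kept by both receptors. Cyb561 had 2 kept sites and 1 emptied site. Slc18a2 had 2 shared sites, both emptied.

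The sites of list genes whose best GRE had 1 mismatch are shown, with 15 bp to each side, because the GRE lay within 8 bp of the MR CORT summit at each of them. They were chosen after their values were seen.
Pnmt (chr11:98386074-98386118): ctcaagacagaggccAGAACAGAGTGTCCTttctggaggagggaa
Th (chr7:142918822-142918866): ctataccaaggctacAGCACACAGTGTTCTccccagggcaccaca
Per1 (chr11:69099401-69099445): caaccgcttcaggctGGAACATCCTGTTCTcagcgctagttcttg

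Of the neuroblast transcription factor genes, Gata3, which encodes a GATA factor, had 1 kept site 770 bp before its start with 11.6 for GR CORT, 12.5 for MR CORT and 11.5 for MR washout. Among the 17 synaptotagmin genes, which encode calcium sensors of vesicle release, 3 had kept sites (17.6%), or 42.9% of the 7 with a shared site, below the 47.5% over all genes. The stronger site of Syt1 had 14.2 for GR CORT, 24.5 for MR CORT and 38.1 for MR washout, the site of Syt2 had 23.4, 24.5 and 19.3, and Syt9 had 2 sites. The synaptotagmin list held 5 kept and 9 emptied sites. Of 19 clock genes, Per1, Per2 and Cry2 had kept sites (15.8%, or 50% of the 6 with a shared site), with an MR washout −log10 p of 16.2, 7.69 and 14.7. The phosphatase gene Dusp4 had 1 kept site with 26.7, 29.6 and 11.2. These shares are counts in lists chosen with earlier results known, and gene length was not taken into account.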

How the data were processed

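ChIP-nexus peak lists and border pair lists of N2A cells were used for both receptors and for input. Per the labels and methods, the authors aligned reads to GRCm38 (mm10) with Bowtie 2, removed duplicates with the same random barcode, combined 3 replicates per condition, and called peaks with MACS2 2.1.1.20160309 at a false discovery rate of 0.05 against input and border pairs with MACE. For each peak the authors deposited a −log10 p, a −log10 q (in the column named for fold enrichment) and a score, which rounds 10 times that q value down. Summits came from the deposited offset. Border pairs were taken as the authors called them, with no further use of the deposited p-value, and GR pairs of the CORT treatment were not used here.

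The kept sites and the gene lists were chosen with earlier results of these data known. Peaks overlapped when they shared 1 bp or more. Each site took the MR CORT peak, kept ones for kept sites, with the highest −log10 p. Sequence within 100 bp of the MR CORT summit was read from the GRCm38 genome of NCBI, whose chromosome names were matched to those of the files, and motifs were searched on both strands (at most 3 mismatches for the GRE, 2 for NF-1, 1 for Phox2a, none for the rest). Genes were those of GENCODE M21. Intervals are 95% Wilson intervals for shares and cover counting error only. Site groups were compared by Fisher's exact test (two-sided), logistic regression and permutation tests, at a threshold of 0.05 after Benjamini-Hochberg adjustment. The genes named hold, or start nearest to, the 10 kept sites with the highest MR washout and the 10 with the highest GR CORT −log10 p, or have the most kept sites, or are the study's own genes (Fkbp5, Syt2, Ddc, Sgk1 and Dusp4), or belong to one of 6 gene lists. The result of 1 listed gene, and the count of its list, are not reported here. Alternatives changed the overlap, the peak threshold, the window, the mismatches and the sites used. The scan of words, the flanking windows and the models with GC content or for other motifs were added after the data were seen. Methods were tested on simulated data. The files hold no read counts, so depth could not be measured from them, and it limits which sites could be called. Computations used Python 3.11.15, numpy 2.4.6, pandas 2.3.3, scipy 1.17.1, statsmodels 0.14.6 and pysam 0.24.0, and figures were drawn with matplotlib 3.10.9.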

Additional observations from a re-analysis of the deposited data

How the results depend on the processing

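The share of shared sites kept by MR alone was 39.9% and went to 33.9% when summits had to lie within 50 bp of each other, and stayed within its interval under the other 6 alternatives. The odds ratio of a GRE at kept against emptied sites lay between 1.40 and 1.87 in 11 alternatives, and between 1.35 and 1.75 in 14 with peak strength in the model, and that of the GATA word between 1.34 and 1.70, all past the threshold. Against MR-only kept sites, 2 motifs passed the test, 0 with a window of 50 bp (1 at an unadjusted p under 0.05 in Fisher's exact test), 1 with a window of 200 bp and 5 with summits within 50 bp of each other. The summit setting also counted MR peaks with a farther GR summit as MR-only. Of 4 position classes 0 passed, 2 did with protein-coding genes alone and 1 with gene starts within 5 kb. The difference in GC content lay between -0.628 and -0.334 percentage points. The scan of words found 10 words more frequent than at emptied sites and 6 with a window of 50 bp, of which 3 were shared. Some alternatives were counted although their setting could not change the odds ratio. The mismatch limits of the GRE left the matches of all other motifs as they were. The 5 kb limit for gene starts left the other position classes as they were. Of 270 alternatives over all results, 238 left the result the same, these included, and 7 moved a share or a count beyond its set range. A further 8 lost a call, 8 gained one and 9 turned a direction. Each of these 9 was an odds ratio that did not pass the test either way. Against MR-only kept sites these were the GRE, from 0.89 to 1.00 with at most 4 mismatches and 1.12 with summits within 50 bp, the NF-1 site, from 1.02 to 0.95 and 0.92 with windows of 50 and 200 bp, and the E-box, from 1.05 to 0.97 without summits in repeats. Against emptied sites they were the GC box, from 0.97 to 1.04 with a window of 200 bp and 1.12 with summits within 50 bp, the E-box, from 0.92 to 1.02 with such summits, and the cAMP response element, from 2.00 to 0.91 for peaks with a −log10 q from 5 up. The causes were not tested. No paired analysis was possible because each condition had 1 list with its replicates combined, and for the same reason no replicate could be left out. Depth limits which weak washout peaks were called.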
